A study of Mus musculus with 12 samples.

Results

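A set of 9 genes of leukocyte adhesion and sphingosine 1-phosphate (S1P) signalling were followed in sorted stromal cells of the mouse gut. They were taken by name, the adhesion molecules Selp, Sele, Madcam1, Icam1, Icam2 and Vcam1 and the S1P genes Sphk1, Spns2 and S1pr1, so that all 9 members are accounted for among the 32052 genes measured. All 9 passed the filter on low counts that left 16757 genes for testing. The libraries were made from total RNA, with enzymatic removal of ribosomal RNA, from cells negative for the epithelial marker EPCAM and the leukocyte marker CD45. The groups were GFP-positive and GFP-negative cells of the small intestine and GFP-positive and GFP-negative cells of the colon, with 3 libraries each. GFP marked expression of an Rspo3 reporter transgene, and all groups came from adult mice on a C57Bl6 background aged 8 to 12 weeks, so the GFP-negative cells are the other stroma of transgenic animals rather than cells of animals without the transgene. The sorts were not gated on endothelium, and each library is a mixture of stromal cell types. Whether the 3 replicates of a group were separate animals is not given in the labels, so p-values measure only the spread between these samples, which may be technical.

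Leukocytes leave blood by rolling on selectins and addressins displayed by venular endothelium, and then arrest on members of the immunoglobulin superfamily that bind their integrins. MAdCAM-1 is the addressin of gut venules. Lymphocytes leave tissue along a gradient of S1P, which sphingosine kinases make inside cells, the transporter SPNS2 exports and the receptor S1PR1 senses. Lymphatic endothelium is a known source of this lymph S1P, and S1PR1 also acts within endothelium on junctions and sprouting.

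The start regions of the 3 genes that set the small intestinal sorts furthest apart, Selp, Sele and Madcam1, are shown because their levels moved together. Each is the 250 bases before the annotated start, from RefSeq on GRCm38.p6 and 5′ to 3′ on the gene's own strand, which is plus for all of them. Capitals mark matches, on either strand, to the NF-kB motif or to the letters TATAAA, and no match of either kind overlaps another.
Selp, chr1:164115014-164115263: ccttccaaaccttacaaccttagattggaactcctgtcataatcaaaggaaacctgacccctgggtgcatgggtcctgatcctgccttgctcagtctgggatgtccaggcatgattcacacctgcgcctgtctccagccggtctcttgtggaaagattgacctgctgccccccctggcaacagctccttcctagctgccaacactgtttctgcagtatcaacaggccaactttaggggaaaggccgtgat
Sele, chr1:164047984-164048233: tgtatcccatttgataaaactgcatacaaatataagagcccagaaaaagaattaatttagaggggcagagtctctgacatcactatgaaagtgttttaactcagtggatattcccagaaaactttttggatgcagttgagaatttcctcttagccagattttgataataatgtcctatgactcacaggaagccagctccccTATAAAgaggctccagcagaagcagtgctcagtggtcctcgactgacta
Madcam1, chr10:79664309-79664558: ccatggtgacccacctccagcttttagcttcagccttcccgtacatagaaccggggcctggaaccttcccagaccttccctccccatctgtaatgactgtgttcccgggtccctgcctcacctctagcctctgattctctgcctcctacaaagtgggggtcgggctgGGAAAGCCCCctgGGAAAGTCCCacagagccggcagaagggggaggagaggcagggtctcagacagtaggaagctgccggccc
The Sele window holds 1 TATAAA at bases -49 to -44 from the start. The Madcam1 window holds 2 NF-kB matches, at -83 to -74 and -70 to -61, both read on the minus strand. Of 32851 windows of this length, 12.4% held TATAAA and 7.25% held the NF-kB motif. A match is a run of letters and not a shown site, and the Selp window holding neither says only that these letters are not in it. Windows were at hand for 6 of the 9 members, and those of Icam1 and Spns2 held neither motif. Of several windows of Sphk1, 1 held both, an NF-kB match at -91 to -82 and TATAAA at -31 to -26.

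Libraries held 6489835 to 12286054 counts, and Rspo3 itself averaged 193 against 8.99 CPM (counts scaled to a common library size) in GFP-positive against GFP-negative small intestine and 132 against 3.76 CPM in colon. The 6 lymphatic endothelial markers, Lyve1 and Prox1 among them, were called higher in GFP-positive cells of both tissues. Their summed level was 4160 to 14800 CPM in GFP-positive and 137 to 542 CPM in GFP-negative small intestine, and 17800 to 20800 CPM in GFP-positive and 47.8 to 186 CPM in GFP-negative colon. Of 7 blood endothelial markers, 1 was higher and 5 lower in GFP-positive small intestine, and 2 were higher and 3 lower in GFP-positive colon. Their sum was 278 to 842 CPM in GFP-positive and 614 to 2140 CPM in GFP-negative small intestine, against 723 to 791 CPM in GFP-positive and 194 to 809 CPM in GFP-negative colon, and Sox17 was at 0 in every GFP-positive small intestinal library. Kdr made up most of the GFP-positive sums, with means of 502 of 601 CPM in small intestine and 627 of 760 CPM in colon. Flt1 averaged 3.11 against 379 CPM in GFP-positive against GFP-negative small intestine and 5.06 against 130 CPM in colon. Gpihbp1 went the other way, at 55.7 against 7.25 CPM and 92.7 against 1.62 CPM. The 8 pan-endothelial markers summed to 746 to 2460 CPM in GFP-positive and 574 to 1840 CPM in GFP-negative small intestine, where none of the 8 was called by edgeR (1 at an unadjusted p under 0.05, beside 3957 of 16757 over all genes), and to 2070 to 2460 CPM in GFP-positive and 265 to 653 CPM in GFP-negative colon, where 7 of 8 were called higher. In bulk libraries such as these, fewer cells of a type and less RNA per cell cannot be told apart. The small intestinal libraries numbered 3 had the lowest endothelial sums in both sorts, and the GFP-negative one also held 1100 CPM of leukocyte markers against 15.2 and 19.7 CPM in its replicates, so the small intestinal calls are also given without that pair.

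**Figure D1:**
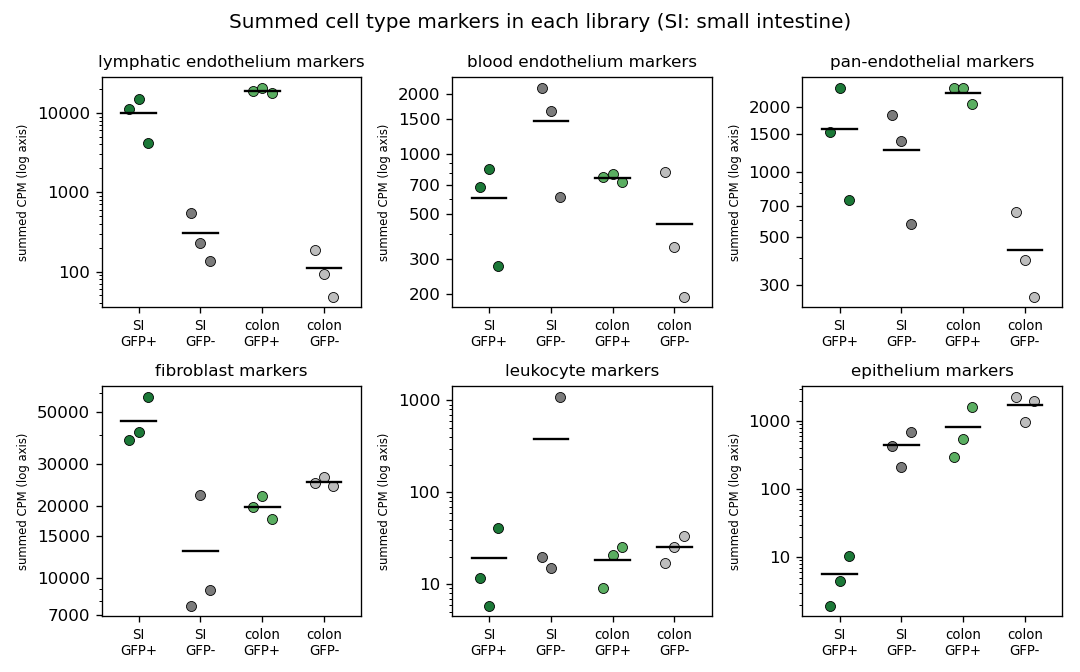
Summed CPM of cell type markers (vertical log axes) in each library of the 4 groups, with a point per library and a line at the group mean. Lymphatic markers separate GFP-positive from GFP-negative libraries in both tissues, and 1 GFP-negative small intestinal library stands at 1100 CPM of leukocyte markers.

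The rolling receptors were the members that the sort separated most in the small intestine, where Selp, Sele and Madcam1 fell in GFP-positive cells, Sele and Madcam1 to levels at which some libraries held no count. Selp encodes P-selectin (ENSMUSG00000026580, chromosome 1, 164115264 to 164150026, plus strand of GRCm38), which endothelium and platelets store in granules and move to the surface. It measured 3.66, 13.2 and 3.9 CPM in GFP-positive and 693, 421 and 206 CPM in GFP-negative small intestinal libraries 1 to 3. Every GFP-negative library stood far above the highest GFP-positive one. The log2 difference was -5.99 ± 0.88 (SE, n = 3 each, edgeR quasi-likelihood test, adjusted p = 0.00218), and it stayed called when any 1 library was left out, with a highest adjusted p of 0.0132. In the colon Selp stood at 1.54, 3.43 and 3.31 CPM in GFP-positive and 43.3, 11.1 and 7.09 CPM in GFP-negative cells. These groups did not overlap either, yet the difference of -2.89 ± 0.84 missed the threshold (adjusted p = 0.0632), and it passed without GFP-negative library 3 (adjusted p = 0.0442) and by DESeq2 (adjusted p = 0.00616). Platelet markers overlapped between the sorts, with sums of 1.97 to 4.13 CPM in GFP-positive and 0.418 to 14.1 CPM in GFP-negative small intestine over the 3 of 6 markers in the table.

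Sele encodes E-selectin (ENSMUSG00000026582, chromosome 1, 164048234 to 164057677, plus strand), the selectin that activated endothelium makes anew. It measured 0, 1.08 and 3.19 CPM in GFP-positive and 311, 129 and 72.2 CPM in GFP-negative small intestine. The count of 0 in GFP-positive library 1 allows up to 0.25 CPM, where the limit is 3 counts and covers counting error only. Sele fell in GFP-positive cells, with a log2 difference of -6.98 ± 1.4 (adjusted p = 0.0124), a call that ended without GFP-positive library 2 (adjusted p = 0.0558) or with only the libraries compared in the fit (adjusted p = 0.0554). Colonic levels were 0.879, 0.528 and 0 CPM in GFP-positive and 15.5, 1.94 and 1.01 CPM in GFP-negative cells, where GFP-negative library 1 held most of the signal. The groups did not overlap, and the difference of -3.64 ± 1.52 was not called (adjusted p = 0.224).

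Madcam1 encodes the gut addressin MAdCAM-1 (ENSMUSG00000020310, chromosome 10, 79664559 to 79668537, plus strand), which lymphocytes with a gut-homing integrin bind. It had 15, 0 and 0 counts in GFP-positive and 567, 488 and 109 counts in GFP-negative small intestine, which is 1.25, 0 and 0 CPM against 68.2, 51 and 17.5 CPM. The libraries with no count allow up to 0.296 and 0.354 CPM. All GFP-negative libraries stood above the GFP-positive ones, and the log2 difference was -6.60 ± 1.53 (adjusted p = 0.0211). The call ended without GFP-negative library 1 (adjusted p = 0.0559), without GFP-positive library 2 (0.066) or 3 (0.0632), with no filter on low counts (0.0678) and with only the libraries compared (0.0589). In the colon Madcam1 had 0, 5 and 0 counts in GFP-positive and 32, 16 and 0 counts in GFP-negative libraries, so the groups overlapped and the difference of -3.31 ± 1.70 was not called (adjusted p = 0.333).

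**Figure D2:**
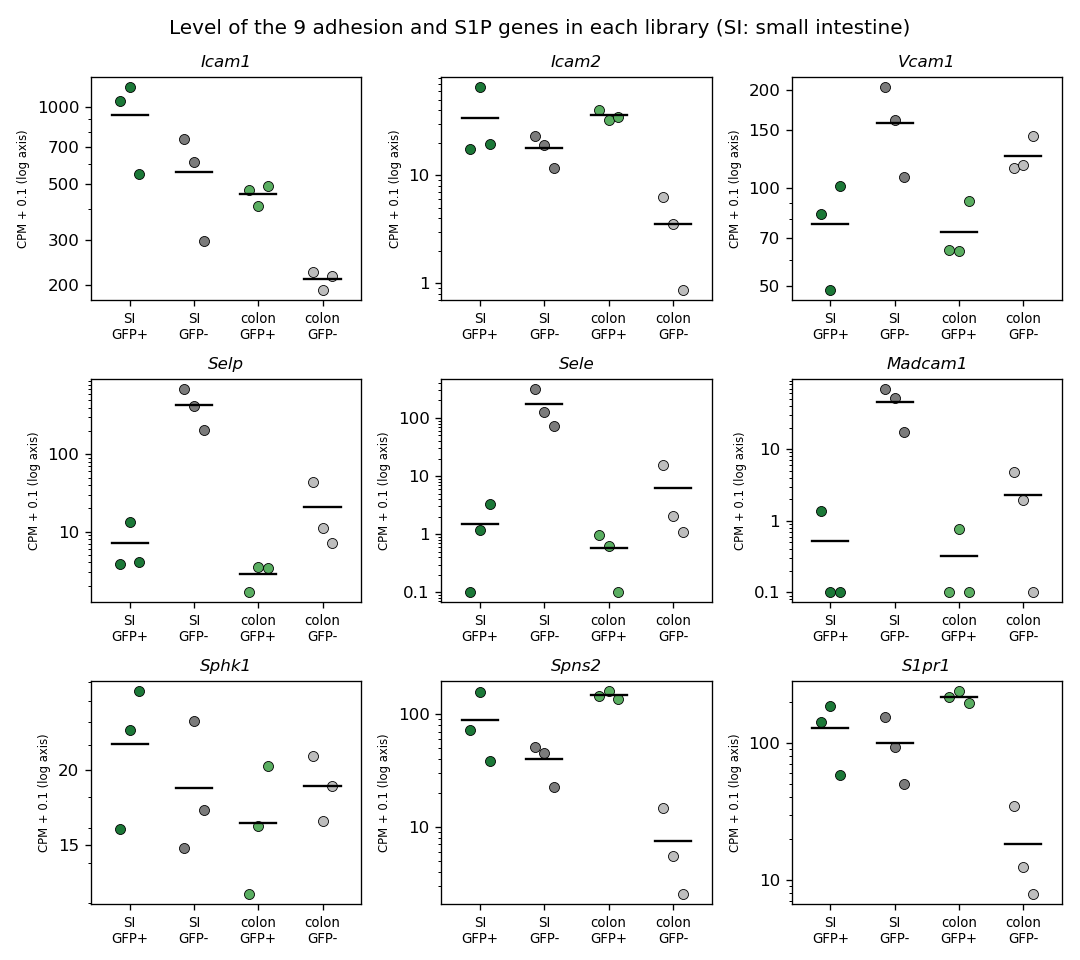
Level of each gene in CPM (0.1 added, vertical log axes, a different range in each panel) in the 12 libraries, with a point per library and a line at the group mean. Selp, Sele and Madcam1 stand high in GFP-negative small intestine (means 440, 171 and 45.6 CPM), while Spns2 and S1pr1 stand highest in GFP-positive colon (means 147 and 218 CPM).

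The arrest molecules of the immunoglobulin superfamily did not share a direction. Icam1, which binds leukocyte integrins for firm adhesion (ENSMUSG00000037405, chromosome 9, 21015985 to 21028817, plus strand), was the most abundant member per length in all 4 groups, with mean TPM (abundance scaled for transcript length) of 39.5 in GFP-positive and 23.4 in GFP-negative small intestine, 25.9 in GFP-positive and 12.8 in GFP-negative colon. Its libraries held 1060, 1200 and 549 CPM in GFP-positive and 753, 613 and 299 CPM in GFP-negative small intestine, which overlapped. Within each number the GFP-positive library was the higher one. The difference of 0.76 ± 0.33 was not called over groups (adjusted p = 0.186) and was called higher when the replicate number was a block (adjusted p = 0.0148). The numbers pair the samples in the small intestine, as judged from the data, and the column names of each such pair share a number or tag. In the colon Icam1 stood at 473, 411 and 490 CPM in GFP-positive and 226, 191 and 218 CPM in GFP-negative libraries without overlap. The colonic difference of 1.11 ± 0.33 lay just outside the threshold (adjusted p = 0.0596), and inside it by DESeq2 (0.00873), with no filter (0.0176), under the replicate block (0.00345) and with only the libraries compared (3.14e-05).

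Icam2, a constitutive ligand for leukocyte integrins on endothelium (ENSMUSG00000001029, chromosome 11, 106377656 to 106388075, minus strand), measured 17.6, 65.2 and 19.6 CPM in GFP-positive and 23, 18.8 and 11.6 CPM in GFP-negative small intestine. GFP-positive library 2 stood apart and the other libraries overlapped, with a difference of 0.94 ± 0.60 (adjusted p = 0.392). In the colon it measured 40.3, 32.4 and 34.5 CPM in GFP-positive and 6.16, 3.43 and 0.76 CPM in GFP-negative cells. Icam2 rose in GFP-positive colon by 3.38 ± 0.67 (adjusted p = 0.00883), a call kept when any 1 library was left out (highest adjusted p 0.0458).

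Vcam1, whose product binds integrins of lymphocytes and monocytes and is made by fibroblastic stroma as well as by activated endothelium (ENSMUSG00000027962, chromosome 3, 116109949 to 116129688, minus strand), ran the other way. It measured 82.9, 48.4 and 101 CPM in GFP-positive and 203, 161 and 108 CPM in GFP-negative small intestine, where the closest libraries were both numbered 3. Vcam1 fell in GFP-positive cells by 1.03 on the log2 scale (SE 0.29, adjusted p = 0.0369). That call ended when GFP-negative library 1 (0.12) or 2 (0.0536) or GFP-positive library 1 (0.0797) or 2 (0.113) was left out, under the replicate block (0.05), with only the libraries compared (0.164) and on the deposited log2 TPM (-0.65, adjusted p = 0.408). Colonic libraries held 64.5, 64 and 90.7 CPM in GFP-positive and 115, 117 and 144 CPM in GFP-negative cells, with no overlap and a difference of -0.78 ± 0.29 (adjusted p = 0.133), which passed with only the libraries compared (0.00547). Fibroblast markers summed to 37900 to 57900 CPM in GFP-positive and 7610 to 22300 CPM in GFP-negative small intestine, and to 17700 to 22200 CPM in GFP-positive and 24300 to 26600 CPM in GFP-negative colon. Their part in the Vcam1 difference was not tested.

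In CPM, the S1P genes split between an enzyme that did not separate the groups and a transporter and a receptor that separated the colonic sorts. Sphk1 encodes sphingosine kinase 1, which makes S1P (ENSMUSG00000061878, chromosome 11, 116530925 to 116536674, plus strand). It measured 15.8, 23.2 and 26.9 CPM in GFP-positive and 14.7, 24 and 17 CPM in GFP-negative small intestine, and 12.3, 16 and 20.2 CPM in GFP-positive and 21, 16.3 and 18.7 CPM in GFP-negative colon. All 4 groups overlapped their neighbours in rank. The differences were 0.24 ± 0.28 in the small intestine (adjusted p = 0.679) and -0.21 ± 0.28 in the colon (adjusted p = 0.775).

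Spns2, the S1P exporter (ENSMUSG00000040447, chromosome 11, 72451638 to 72489904, minus strand), measured 145, 160 and 136 CPM in GFP-positive and 14.5, 5.37 and 2.41 CPM in GFP-negative colon. The lowest GFP-positive library was far above the highest GFP-negative one, and Spns2 rose by 4.32 ± 0.69 (adjusted p = 0.00286), also when any 1 library was left out (highest adjusted p 0.0205). Its small intestinal levels were 71.8, 158 and 38.6 CPM in GFP-positive and 51.2, 45.2 and 22.7 CPM in GFP-negative cells. GFP-positive was the higher library of each number, the groups overlapped, and the difference of 1.17 ± 0.60 was not called (adjusted p = 0.271). In both sorts the library numbered 3 was lowest, as it was for the endothelial markers.

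S1pr1, a receptor for S1P on lymphocytes and endothelium (ENSMUSG00000045092, chromosome 3, 115710433 to 115715072, minus strand), measured 219, 239 and 196 CPM in GFP-positive and 34.5, 12.4 and 7.73 CPM in GFP-negative colon. It rose by 3.59 ± 0.63 (adjusted p = 0.00478), and in every fit that left out 1 library (highest adjusted p 0.0283). Small intestinal libraries held 142, 187 and 58.8 CPM in GFP-positive and 154, 93.5 and 50.3 CPM in GFP-negative cells. They overlapped across their range, and the difference of 0.38 ± 0.56 was not called (adjusted p = 0.763).

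**Figure D3:**
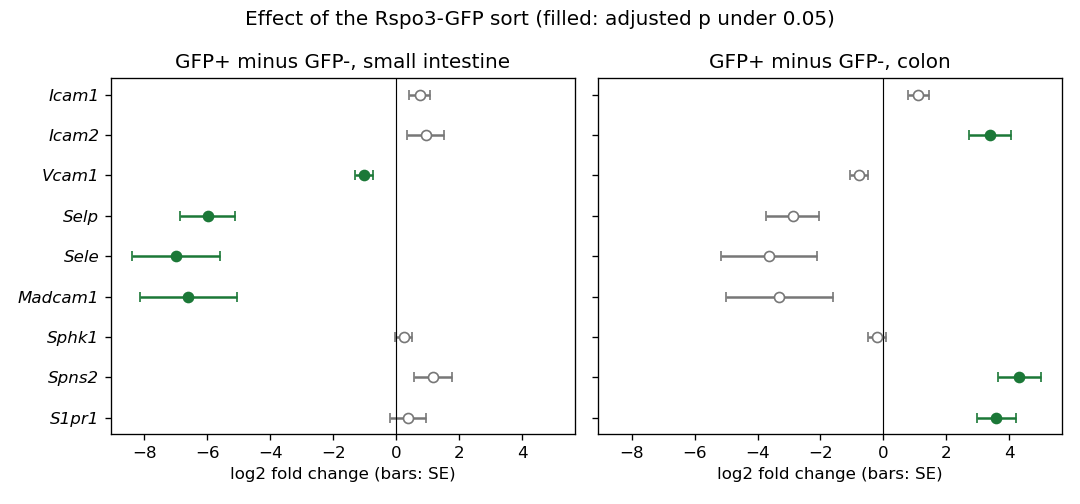
Log2 fold change of GFP-positive over GFP-negative cells (horizontal axes, bars give the SE) for the 9 genes, small intestine at left and colon at right, with filled points for adjusted p under 0.05. The 4 filled points of the small intestine lie below 0 and the 3 filled points of the colon above it.

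Mitochondrial rRNA and the protein-coding share of counts also separated the small intestinal sorts. Mitochondrial rRNA took 5.35% to 7.92% of counts in GFP-positive and 9.73% to 12.7% in GFP-negative libraries, and protein-coding genes 78.9% to 83.9% in GFP-positive and 65.9% to 76.1% in GFP-negative libraries, and their part in the differences was not tested. Counted together, 4 of 9 members fell and 0 rose in GFP-positive small intestine, against a background of 10.9% of the 16757 genes called, 6.63% lower and 4.24% higher. The median of the 9 differences was 0.24, beside -0.03 for all genes. The same 4 members had groups that did not overlap, as did 21.9% of all genes tested. Without both small intestinal libraries numbered 3 the same 4 were called, Selp at -6.06 (adjusted p = 0.00593), Sele at -8.72 (0.0131), Madcam1 at -6.48 (0.0278) and Vcam1 at -1.47 (0.00801). The count of 4 was 1 without GFP-positive library 2, 2 without GFP-negative library 1 and 1 with only the libraries compared, where Selp was the member called, and under the replicate block it was 4 with 1 higher (Icam1) and 3 lower. In GFP-positive colon, 3 of 9 members rose and 0 fell, against 8.69% of all genes called, 4.62% higher and 4.06% lower. The median there was -0.21, beside -0.03 for all genes. In 7 of 9 members (Madcam1 and Sphk1 excepted) the colonic groups did not overlap, as in 35.6% of all genes. DESeq2 and the fit to only the libraries compared each called 5 members in the colon.

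The difference between the tissues' GFP effects, taken directly as an interaction, was called for none of the 9 members by edgeR (background 2.06% of genes called, 1.16% higher and 0.895% lower), with 4 of them at an unadjusted p under 0.05 (2430 of 16757 over all genes). It was 3.21 ± 0.82 for S1pr1 (colon minus small intestine, adjusted p = 0.0758), 3.15 ± 0.87 for Spns2 (0.0965), 2.44 ± 0.88 for Icam2 (0.211) and 3.10 ± 1.13 for Selp (0.225). DESeq2 called 2 members, and the replicate block also called 2, S1pr1 (0.0323) and Spns2 (0.0425). The blocked fit pairs same-numbered sorts within each tissue. Deviations of same-numbered libraries ran together in the small intestine and not in the colon, while the column names give both sorts of the libraries numbered 3, and of the colonic libraries numbered 2, a shared tag that the labels do not explain. The column names of the small intestinal libraries numbered 1 and 2 carry that number in both sorts. Without 1 library, edgeR called S1pr1 and Spns2 in 2 of 12 fits each (lowest adjusted p 0.0266 and 0.0368) and Icam2 in 1 (0.0488). Whether a call in 1 tissue alone marks a difference between the tissues thus turned on the fit and the libraries used for S1pr1 and Spns2. For Icam2 it turned on 1 library, and for the other members it was not shown in any edgeR fit.

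Between tissues, 3 of 9 members were lower and 0 higher in colon than in small intestine among GFP-negative cells, against 4.21% of genes called, 2.01% lower and 2.2% higher. Selp averaged 20.5 ± 19.8 CPM in colonic and 440 ± 244 CPM in small intestinal GFP-negative cells (SD, n = 3 each), a log2 difference of -4.43 ± 0.81 (adjusted p = 0.017). Icam1 averaged 212 ± 18.6 CPM in colonic and 555 ± 233 CPM in small intestinal cells (-1.39 ± 0.34, adjusted p = 0.0394). S1pr1 averaged 18.2 ± 14.3 CPM in colonic and 99.2 ± 51.9 CPM in small intestinal cells (-2.45 ± 0.60, adjusted p = 0.0473). The groups of 7 members, all but Vcam1 and Sphk1, did not overlap, as for 22.6% of genes. Spns2 (-2.44 ± 0.65, adjusted p = 0.0652), Sele (-4.82 ± 1.23, 0.0669), Icam2 (-2.38 ± 0.66, 0.0708) and Madcam1 (-4.41 ± 1.35, 0.104) lay outside the threshold. The mean pan-endothelial sum was lower too, though none of its 8 markers was called (8 at an unadjusted p under 0.05, beside 3055 of 16757 over all genes), at 265 to 653 CPM in colonic and 574 to 1840 CPM in small intestinal GFP-negative cells, and its part in these differences was not tested.

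The count of 3 changed with the libraries used. It was 0 without colonic GFP-negative library 2 or 3 (Selp 0.0786 and 0.0625, Icam1 0.152 and 0.141, S1pr1 0.174 and 0.153 as adjusted p) and with only the libraries compared, 1 without small intestinal GFP-negative library 1 or 2, 6 without small intestinal GFP-negative library 3 and 7 without both small intestinal libraries numbered 3. DESeq2 called 6. Among GFP-positive cells, 0 of 9 members were called between colon and small intestine by edgeR (background 4.57% of genes called, 2.75% higher and 1.81% lower). The 1 member at an unadjusted p under 0.05 (2738 of 16757 over all genes) was Icam1, at 458 ± 41.5 CPM in colonic and 937 ± 343 CPM in small intestinal GFP-positive cells (-1.03 ± 0.33, adjusted p = 0.116). DESeq2 called 1 member, and Icam1 was called without both small intestinal libraries numbered 3 (-1.31, adjusted p = 0.00412). Groups of GFP-positive cells did not overlap for Icam1, Selp and S1pr1, as for 24.7% of genes.

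Ordered by mean CPM, Spns2 and Icam2 ran GFP-positive colon, GFP-positive small intestine, GFP-negative small intestine and GFP-negative colon, with overlap between each pair of neighbours save the last. S1pr1 had the same order, and its GFP-positive colon also stood clear of GFP-positive small intestine. Selp, Sele and Madcam1 ran GFP-negative small intestine, GFP-negative colon, GFP-positive small intestine and GFP-positive colon. Only the first pair of neighbours failed to overlap for Sele and Madcam1, and for Selp the last pair did not overlap either. Icam1 ran by tissue, with both small intestinal groups above both colonic ones and a gap only above GFP-negative colon, while in mean TPM GFP-positive colon stood above GFP-negative small intestine. Vcam1 ran by sort, with both GFP-negative groups above both GFP-positive ones and a gap between the sorts. Per length, Selp was second to Icam1 in GFP-negative small intestine (16.7 TPM) and among the last 3 in GFP-positive small intestine (0.514 TPM). S1pr1, Icam2 and Spns2 followed Icam1 in GFP-positive colon at 9.89, 9.67 and 8.57 TPM.

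Because the endothelial share of the libraries varied, members were also expressed per 100 CPM of the summed pan-endothelial markers, a scale chosen with the levels known and given as description. Selp was then 0.433 ± 0.169 in GFP-positive and 34.6 ± 3.86 in GFP-negative small intestine, and 0.121 ± 0.0516 in GFP-positive and 4.04 ± 2.23 in GFP-negative colon. Sele was 0.157 ± 0.235 in GFP-positive and 12.9 ± 3.82 in GFP-negative small intestine, and Madcam1 was 0.027 ± 0.0468 in GFP-positive and 3.47 ± 0.361 in GFP-negative small intestine. Over the GFP-negative small intestinal libraries the ratio was 30.2 to 37.6 for Selp, 9.25 to 16.9 for Sele and 3.05 to 3.7 for Madcam1. In small intestine the gap between the sorts was present on this scale too for all 3 genes. The colonic sorts stayed apart for Selp and Sele and overlapped for Madcam1 (0 to 0.0269 in GFP-positive and 0 to 0.718 in GFP-negative cells). The pan-endothelial sums overlapped between the small intestinal sorts, so dividing by them could not have closed gaps of this size there. The sum does not separate types of endothelium, whose part was not tested.

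S1pr1 per 100 CPM of pan-endothelial markers was 8.23 ± 0.851 in GFP-positive and 7.94 ± 1.09 in GFP-negative small intestine, and 9.36 ± 0.422 in GFP-positive and 3.79 ± 1.29 in GFP-negative colon. Spns2 was 5.43 ± 0.921 in GFP-positive and 3.33 ± 0.59 in GFP-negative small intestine, without overlap, and 6.32 ± 0.388 in GFP-positive and 1.5 ± 0.667 in GFP-negative colon. Icam2 was 2.14 ± 0.865 in GFP-positive and 1.54 ± 0.419 in GFP-negative small intestine, and 1.54 ± 0.193 in GFP-positive and 0.702 ± 0.361 in GFP-negative colon. The colonic groups of all 3 genes stayed apart on this scale, with smaller ratios than in CPM. Icam1 was 19.9 ± 3.5 in GFP-positive and 55.2 ± 24.5 in GFP-negative colon, without overlap and opposite in direction to its CPM. Sphk1 was 0.709 ± 0.244 against 4.82 ± 2.01 and Vcam1 3.2 ± 1.02 against 33.9 ± 18.7, also without overlap. Icam1, Sphk1 and Vcam1 overlapped between the small intestinal sorts. The divisor was larger in GFP-positive than in GFP-negative colon, and its part in these colonic gaps was not tested.

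**Figure D4:**
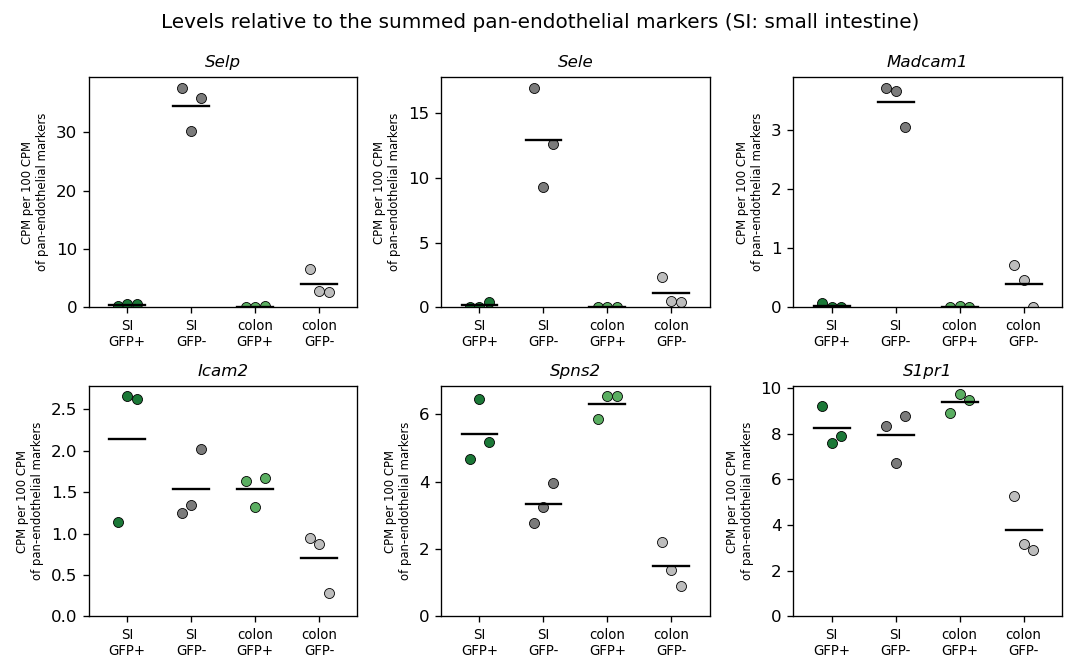
CPM of 6 members per 100 CPM of the 8 summed pan-endothelial markers (vertical axes start at 0), with a point per library and a line at the group mean. Selp, Sele and Madcam1 are highest in GFP-negative small intestine, and S1pr1 lies between 6.71 and 9.73 in all groups but GFP-negative colon, where it lies between 2.92 and 5.28.

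The genes with the most similar levels over the 12 libraries were sought among 10707 protein-coding genes by Pearson's r on log2 CPM, as a description across libraries that share group and endothelial content. S1pr1 was closest to Cdh5 (r = 0.988), the VE-cadherin of endothelial junctions, then to Spns2 (0.985) and Mmrn2 (0.985). Spns2 was closest to Wscd1 (0.99), Afap1l1 (0.986) and Lmo2 (0.986), and Icam2 to Spns2 (0.971), Wscd1 (0.969) and Cdh5 (0.957). Selp ran closest to Rasa4 (0.971), Cdk18 (0.967) and Ass1 (0.961), Sele to Pdgfa (0.974), Fabp5 (0.957) and Plekhb1 (0.951), and Madcam1 to Adgrg6 (0.966), Rasa4 (0.952) and Gfra1 (0.94). Icam1 ran closest to Ppp1r10 (0.942), Rarb (0.937) and Nfkbia (0.933), which encodes an NF-kB inhibitor, and Vcam1 to Kitl (0.954), Nlgn3 (0.942) and Pogk (0.939). Sphk1 had the loosest neighbours, Zfp771 (0.898), Urgcp (0.872) and Txndc12 (0.865).

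Of 21 other tested genes of endothelial adhesion and transmigration, 2 rose and 5 fell in GFP-positive small intestine (median difference 0.09), and 7 rose and 3 fell in GFP-positive colon (median 0.36). Over all genes, 10.9% were called in the small intestinal and 8.69% in the colonic sorts, with a median of -0.03 in each. The colonic count of 10 was not kept when 1 library was left out, where 1 (without GFP-negative library 2) to 6 (without GFP-positive library 3) were called, at most 1 of them lower. Stab1, a scavenger receptor of lymphatic and sinusoidal endothelium, measured 737, 1340 and 254 CPM in GFP-positive and 100, 37.6 and 54.5 CPM in GFP-negative small intestine (3.6 ± 0.57, adjusted p = 0.00221), and also rose in colon (6.0 ± 0.64, adjusted p = 0.000318). Mcam, an adhesion molecule of blood endothelium and pericytes, measured 14.6, 13.6 and 9.69 CPM in GFP-positive and 213, 150 and 63.7 CPM in GFP-negative small intestine (-3.49 ± 0.42, adjusted p = 0.000517). The junctional molecule Esam (-4.50, adjusted p = 0.00355) and the membrane chemokine Cx3cl1 (-1.92, 0.00255) fell with it. In colon Podxl (3.16, 0.00995), Emcn (3.48, 0.00998) and Pecam1 (2.74, 0.0108), which encode endothelial surface glycoproteins, rose, and each of these 3 calls was lost without GFP-negative library 2 (adjusted p = 0.0516, 0.0526 and 0.0547 in that order). Pecam1 and Cdh5, which both rose in colon, are also pan-endothelial markers. The mean sum of those markers was 2330 CPM in GFP-positive and 436 CPM in GFP-negative colon, and its part in these differences was not tested.

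Genes that build or carry ligands for the adhesion molecules followed, and epithelial and leukocyte markers moved beside some of them. Of 8 tested genes of selectin ligand glycosylation, 1 rose and 1 fell in each tissue, and 1 to 2 were called in either tissue without 1 library. For this list and the leukocyte ligands below, the share over all genes was 10.9% called in small intestine and 8.69% in colon. In small intestine B4galt1 rose (0.69, adjusted p = 0.0274, kept in 2 of 6 fits without 1 library, 0.0991 without GFP-positive library 3, 0.195 without both libraries numbered 3 and 0.0563 under the replicate block) and B3gnt3, which extends core chains for L-selectin ligands, fell (-3.49, 0.000674). The 6 epithelial markers fell in the same comparison, with sums of 1.91 to 10.5 CPM in GFP-positive and 210 to 693 CPM in GFP-negative small intestine, and stood at 296 to 1610 CPM in GFP-positive and 964 to 2280 CPM in GFP-negative colon, although the cells were sorted as EPCAM-negative. Their part in the difference was not tested. In colon St3gal6 rose (1.49, 0.0411, kept in 1 of 6 such fits, 0.16 without GFP-negative library 3) and the sulfotransferase gene Chst2 fell (-1.98, 0.0054). Of 11 tested leukocyte ligands, 1 rose and 1 fell in small intestine (1 and 3 under the replicate block), and 2 rose and 1 fell in colon. The small intestinal median was -4.60, with 8 of 11 at an unadjusted p under 0.05 (3957 of 16757 over all genes), and 2 to 5 were called without 1 library, the 5 without GFP-negative library 2. In GFP-negative small intestinal libraries 1 to 3, Itgb2 stood at 0.361, 2.92 and 109 CPM, Itgal at 0.962, 2.4 and 94.1 CPM and Spn at 1.56, 1.36 and 134 CPM. Library 3, with 1100 CPM of leukocyte markers, of which Itgb2 is itself a member, thus held most of the level of these genes. Itga9 (87.6, 84.1 and 78.1 CPM) and Itgb1 (622, 707 and 400 CPM) were not raised there. In colon 1 to 2 were called without 1 library, none of them lower. Itga9 rose in both (1.25, adjusted p = 0.00267 in small intestine and 1.47, 0.00104 in colon). Itga4, the alpha subunit shared by integrins that bind VCAM-1 and MAdCAM-1, measured 3.08, 0.788 and 6.97 CPM in GFP-positive and 59.3, 31 and 312 CPM in GFP-negative small intestine (-5.23, adjusted p = 0.00715). The 312 CPM came from the library with 1100 CPM of leukocyte markers, and the part of those markers was not tested. Without both libraries numbered 3 Itga4 fell by 4.50 (adjusted p = 0.000508), and it was called in all 6 fits without 1 library (highest 0.0363), while the call ended with only the libraries compared (0.123). In colon Itga4 fell as well (-3.59, 0.0348), a call lost in each of the 6 fits without 1 library (highest 0.14, without GFP-positive library 2). Cd24a rose in colon (2.47, 0.0162), which was kept in 2 of 6 such fits (0.0742 without GFP-negative library 2). The high endothelial genes Glycam1, Chst4 and Fut7 were too low to test. Of the venule markers listed with them, Vwf fell in GFP-positive small intestine (-6.72, adjusted p = 0.00108) and colon (-3.52, 0.0176). Ackr1 fell in small intestine (-2.97, 0.0139) and was not called in colon (-0.55, 0.735), while Nr2f2 rose in both tissues.

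Among 23 other tested genes of S1P synthesis, breakdown and transport, 1 rose and 4 fell in GFP-positive small intestine (median -0.14), and 4 rose and 0 fell in GFP-positive colon (median 0.13). The share called over all genes was 10.9% in small intestine and 8.69% in colon. Without 1 library the small intestinal count of 5 was 3 (without GFP-negative library 3 or GFP-positive library 1 or 2) to 6, and without both libraries numbered 3 it was 3. Plpp1, a phosphatase for lysolipid phosphates, rose in both, at 89.9, 78.1 and 88.4 CPM in GFP-positive and 25.1, 40 and 22.2 CPM in GFP-negative small intestine (1.55 ± 0.24, adjusted p = 0.00136) and by 1.09 in colon (adjusted p = 0.0105, 0.0524 without GFP-negative library 3). In small intestine Mfsd2a, a lysolipid transporter of endothelium (-5.22, 0.00869), the S1P phosphatase gene Sgpp2 (-3.97, 0.0111, 0.051 without GFP-positive library 2 and 0.0736 without both libraries numbered 3) and the ceramide synthase gene Cers6 (-1.39, 0.0219, and 0.0823 without GFP-positive library 1) fell. Mfsd2a held almost no counts in GFP-positive cells, at 0.25, 0 and 0.118 CPM against 9.74, 3.76 and 2.25 CPM in GFP-negative cells. Sgpp2 averaged 0.533 CPM in GFP-positive and 9 CPM in GFP-negative small intestine and 11.9 CPM in GFP-positive and 19.7 CPM in GFP-negative colon, beside mean epithelial marker sums of 5.62, 446, 815 and 1730 CPM in that order, whose part was not tested. In colon the lipid transporter genes Abca1 (428, 383 and 371 CPM in GFP-positive against 121, 108 and 92.5 CPM in GFP-negative cells, 1.88 ± 0.21, adjusted p = 0.000251) and Abcg2 (1.80, 0.00534) rose, with Cers4 just inside the threshold (0.82, 0.048, and 0.179 without GFP-negative library 1). The second kinase Sphk2 (-0.74 in small intestine, adjusted p = 0.127) and the S1P lyase Sgpl1 (-0.70 in each tissue, 0.138 in small intestine and 0.168 in colon) were not called. Of 3 other S1P receptors tested, S1pr4, a receptor of leukocytes, fell in small intestine, where it was low in both sorts, with means of 0.0328 CPM in GFP-positive and 3.29 CPM in GFP-negative cells (-6.13, adjusted p = 0.015, 0.0548 without GFP-positive library 1 and 0.0806 without both libraries numbered 3). None of the 3 was called in colon by edgeR or DESeq2, and 1 had an unadjusted p under 0.05 (3265 of 16757 over all genes). S1pr3 separated the tissues, at 9.67, 11 and 11.2 CPM in colonic and 70.9, 30 and 50.2 CPM in small intestinal GFP-positive cells (-2.25 ± 0.37, adjusted p = 0.0039).

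**Figure D5:**
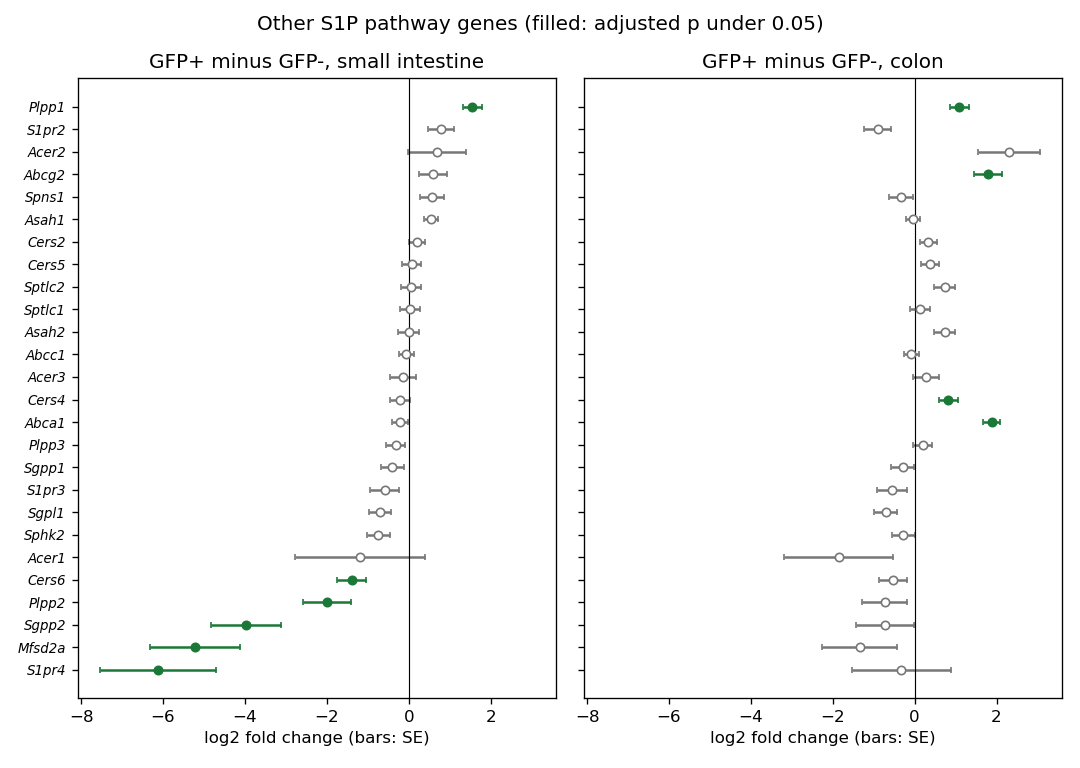
Log2 fold change of GFP-positive over GFP-negative cells (horizontal axes, bars give the SE) for the other tested genes of S1P metabolism, transport and reception, small intestine at left and colon at right, with filled points for adjusted p under 0.05. Plpp1 is filled above 0 in both tissues, Abca1 and Abcg2 only in the colon panel.

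None of 15 NF-kB and TNF receptor genes was called by edgeR in the small intestinal sorts, where 4 had an unadjusted p under 0.05 (3957 of 16757 over all genes) and DESeq2 called 3 lower. In fits without 1 library 0 to 3 were called, the 3 without GFP-negative library 2. In colon 1 rose and 2 fell, and 1 to 2 were called without 1 library (1 without GFP-negative library 3 or GFP-positive library 1 or 3). The colonic calls were Il1r1 (-1.15, adjusted p = 0.00258), Tnfrsf1b (-1.05, 0.0124, and 0.0551 without GFP-positive library 3) and Rela (0.52, 0.0492), the last lost in each fit without 1 library (highest 0.181, without GFP-negative library 2). Of 9 transcription factor genes linked to S1pr1 or the addressins, 2 rose and 1 fell in small intestine, and 5 rose and 1 fell in colon. Beside this list and the NF-kB list, 10.9% of all genes were called in small intestine and 8.69% in colon. Without 1 library the transcription factors called numbered 0 to 3 in small intestine (0 without GFP-positive library 1, 1 without GFP-positive library 2 or GFP-negative library 3) and 3 to 5 in colon (3 without GFP-negative library 2 or 3 or GFP-positive library 1 or 2). Nr2f2, the factor of venous and lymphatic identity, rose in both, at 190, 226 and 110 CPM in GFP-positive and 106, 100 and 50.2 CPM in GFP-negative small intestine (1.04, adjusted p = 0.0399, and 0.146 without GFP-positive library 2) and by 3.03 ± 0.32 in colon (0.000164). Nkx2-3, needed for MAdCAM-1 in mouse gut endothelium and also made by gut mesenchyme, fell in both (-1.32, 0.028 in small intestine, 0.105 without GFP-positive library 1 and 0.0651 under the replicate block, and -2.06, 0.00318 in colon). It stood at 32.7, 32.4 and 30.9 CPM in GFP-positive and 134, 130 and 136 CPM in GFP-negative colon, where Madcam1 had at most 32 counts. Klf4 rose in small intestine (1.22, 0.023, and 0.099 without GFP-positive library 1). Fli1 (2.11, 0.00674) and Sox18 (3.18, 0.0192, and 0.0871 without GFP-negative library 2) rose in colon, while Klf2, an activator of S1pr1 in lymphocytes, was not called in either. Erg, also among the 5 that rose in colon, is itself a pan-endothelial marker, and the part of those markers was not tested.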

How the data were processed

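Total RNA of 12 sorted stromal samples in 4 groups of 3 was sequenced, and samples sorted on CD31 are not analysed here. The submitters' processing notes name mm10 as the build, Salmon 1.1.0 and R 3.6.1, and the annotation and any filter are not given in the sources used here. The authors deposited estimated counts per gene, which are whole in 100% of cells and were taken as rounded, and a second deposited table on the log2 scale, log2(TPM + 1). Symbols and positions came from GENCODE M21 (GRCm38), with 32001 of 32052 identifiers matched. Libraries held 6489835 to 12286054 counts, and intervals from counts cover counting error only.

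The main test was the robust quasi-likelihood test of edgeR 4.0.16 under R 4.3.3, using TMM and, in filterByExpr, a minimum count of 10, in 1 model of all 12 libraries with a mean per group, over 16757 genes with Benjamini-Hochberg adjustment. A call is an adjusted p under 0.05, and log2 differences carry the SE. The fit was also run on simulated counts with 200 genes changed by known folds. These counts were drawn with the fit's own spread and no pairing of libraries, so that run does not bear on the pairing seen here. Alternatives were RLE factors, no filter, DESeq2 1.42.0, limma 3.58.1 on the deposited log2 TPM, only the libraries compared, a replicate block, leaving out each library, and, chosen after seeing the data, leaving out both small intestinal libraries numbered 3. Same-numbered libraries of the small intestinal sorts deviated together (r = 0.323, 0.179 and 0.166), and the colonic ones did not (0.009, 0.047 and 0.09). Column names give both sorts a shared tag for the libraries numbered 3, across tissues, and for the colonic libraries numbered 2, and the labels do not say what it marks. Those of the small intestinal libraries numbered 1 and 2 carry that number in both sorts.

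The members and the gene lists were chosen with earlier results of these data known. All members are described, and from each other list up to 4 called genes with the smallest adjusted p are named per comparison (in examples), with 3 nearest genes of mean log2 CPM of at least 2 for each member. Further genes named for their role (Sphk2, Sgpl1, Klf2, Vwf, Ackr1 and the high endothelial genes) were chosen after values were seen.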

Additional observations from a re-analysis of the deposited data

Results flagged for a closer look

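Among the other genes of the pathways, 5 had GFP effects that differed between the tissues by the interaction test of edgeR (colon minus small intestine, log2). Abca1 differed by 2.09 ± 0.29 (adjusted p = 0.00472), with means of 394 CPM in GFP-positive and 107 CPM in GFP-negative colon against 217 CPM in GFP-positive and 252 CPM in GFP-negative small intestine, and the call held in all 12 fits that left out 1 library but not on the deposited log2 TPM (adjusted p = 0.0784). Podxl differed by 4.10 ± 0.86 (0.0389), Mcam by 2.80 ± 0.56 (0.0271), Nr2f2 by 1.99 ± 0.42 (0.0314) and Il1r1 by -1.39 ± 0.27 (0.0249). Of 12 such fits the call held in 4 for Podxl, 5 for Mcam, 3 for Nr2f2 and 6 for Il1r1. The summed pan-endothelial markers also differed between the sorts in colon and overlapped in small intestine, and their part in these differences was not tested.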

How the results depend on the processing

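Over settings other than leaving out 1 library, the members' differences kept direction and side of the threshold in 252 results, passed it newly in 25, lost it in 12 and reversed in 8. Members called in the small intestinal sorts (4) numbered 1 with only the libraries compared and 1 to 4 without 1 library. In the colonic sorts (3) they numbered 5 by DESeq2, 5 with only the libraries compared and 3 to 4 without 1 library. For the interaction (0) they numbered 2 by DESeq2, 2 under the replicate block and 0 to 2 without 1 library. Between tissues in GFP-positive cells (0) they numbered 1 by DESeq2, 1 without both small intestinal libraries numbered 3 and 0 to 1 without 1 library. In GFP-negative cells (3) they numbered 6 by DESeq2, 7 without that pair, 0 with only the libraries compared, 6 under the replicate block and 0 to 6 without 1 library. For comparisons between tissues the block joined libraries of the same number over both tissues. Same-numbered GFP-negative libraries of colon and small intestine deviated with r of 0.098, 0.028 and 0.223.

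Among the genes named from the small intestinal sorts, the replicate block added Icam1, ended the calls of Vcam1, B4galt1 and Nkx2-3 and changed no other call.

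Over all genes, the small intestinal sorts gave 1821 calls (710 higher, 1111 lower), 671 by limma on log2 TPM (343 higher, 328 lower), 772 with only the libraries compared and 1293 to 2615 without 1 library. The colonic sorts gave 1456, 3000 with only the libraries compared and 840 to 1161 without 1 library. The interaction gave 345 (195 higher, 150 lower), 1095 by DESeq2, 160 by limma (49 higher, 111 lower) and 67 to 1057. Between tissues, GFP-positive cells gave 765 (461 higher, 304 lower), 1430 by DESeq2, 376 by limma (311 higher, 65 lower) and 424 to 635. GFP-negative cells gave 706 (369 higher, 337 lower), 1666 by DESeq2, 1509 by limma (1318 higher, 191 lower), 337 with only the libraries compared and 197 to 1227. On log2 TPM the median over all genes moved to 0.129 beside -0.02 in GFP-positive and to 0.193 beside -0.057 in GFP-negative cells.

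Reversals were confined to uncalled differences. Between tissues in GFP-positive cells, Icam2 was -0.211 and Vcam1 0.155 without both libraries numbered 3, and on log2 TPM Vcam1 was 0.273 and Sphk1 0.106. In GFP-negative cells Sphk1 was -0.053 without that pair and -0.037 with only the libraries compared, and Vcam1 was 0.414 on log2 TPM, where its interaction was -0.141. Leaving out 1 library gave -0.249 to 0.94 for Icam2, -5.035 to 3.854 for Madcam1 and -0.328 to 0.155 for Vcam1 in GFP-positive cells, -0.14 to 0.237 for Sphk1 in GFP-negative cells and -0.63 to 8.259 for the interaction of Madcam1. The causes were not tested. Depth limits Madcam1 and Sele most, which had libraries with no count.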
